A study of Mus musculus with 30 samples.

Results

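The 10 genes described here are markers of vascular endothelium, the cell layer that lines blood vessels: Pecam1, Cdh5, Kdr, Flt1, Tek, Tie1, Vwf, Eng, Emcn and Plvap. They were chosen by name, and all 10 of them are in the count table of 33924 genes and were among the 19016 genes with enough counts to be tested. RNA sequencing was carried out on mouse thyroid in 10 groups. Wild-type (n = 3) and Arid1a knockout thyroids (n = 3) were untreated and did not carry the Braf allele. Every other group carried Braf(V600E), an activated kinase of the MAPK pathway, alone or with knockout of 1 of 3 genes for parts of the SWI/SNF nucleosome remodelling machinery, Arid1a, Arid2 or Smarcb1. Each of these 4 genotypes was dosed for 8 days with vehicle or with CKI (CH5126766), an inhibitor of RAF and MEK kinases, and was taken about 2 hours after the last dose. These groups held 3 libraries each, except that 2 libraries each of Braf Arid2 knockout under vehicle and under CKI were analysed. Ages, and the promoter that drives recombination, are not given in the sources used here. The comparisons ask how the Braf allele, the added knockouts and the drug went with the level of these markers. Every group with the Braf allele was dosed and neither group without it was. Allele and dosing therefore cannot be told apart where groups with and without the allele are compared.

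Endothelial cells form the dense capillary bed around thyroid follicles, through which the gland takes up iodide and releases hormone. Follicular cells secrete vascular endothelial growth factor (VEGF), which acts on the receptor tyrosine kinases encoded by Kdr and Flt1: Kdr carries most of the growth signal, and Flt1 binds the ligand tightly and can act as a decoy. Angiopoietins act through Tek, with Tie1 as its partner receptor, and set how stable a vessel is. Pecam1 and Cdh5 (VE-cadherin) join endothelial cells to each other, Vwf is a clotting protein stored in these cells, Eng (endoglin) is a co-receptor for ligands of the TGF-beta family, Emcn (endomucin) is a surface sialomucin of capillaries and veins, and Plvap forms the diaphragms of fenestrated capillaries, the kind found in endocrine glands. Pecam1 is also present on leukocytes and platelets, Vwf in platelets, and Eng on macrophages and stromal cells. In bulk tissue a lower level of a marker can come from fewer cells of a type or from less RNA per cell, and these cannot be told apart here.

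The promoter sequences of 6 of the 10 markers (Kdr, Flt1, Tek, Tie1, Eng and Emcn) were found in the RefSeq table of build GRCm38.p6. The 250 bases before the annotated start are printed for 3 of them, both VEGF receptors and a capillary surface protein, on the strand of the gene and from 5′ to 3′. Capitals mark a match to a searched motif, and Kdr had none.
Flt1 (chr5:147726012-147726261, minus strand): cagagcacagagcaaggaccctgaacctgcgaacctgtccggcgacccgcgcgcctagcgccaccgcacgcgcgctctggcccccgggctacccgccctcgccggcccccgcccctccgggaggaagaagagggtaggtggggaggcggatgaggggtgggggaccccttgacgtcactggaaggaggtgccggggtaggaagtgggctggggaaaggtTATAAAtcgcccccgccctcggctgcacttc
Kdr (chr5:75978456-75978705, minus strand): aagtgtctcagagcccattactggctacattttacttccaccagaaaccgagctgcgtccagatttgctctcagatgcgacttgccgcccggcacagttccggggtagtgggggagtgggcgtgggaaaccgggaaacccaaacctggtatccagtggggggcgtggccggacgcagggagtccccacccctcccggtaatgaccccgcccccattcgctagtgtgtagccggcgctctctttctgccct
Emcn (chr3:137340828-137341077, plus strand): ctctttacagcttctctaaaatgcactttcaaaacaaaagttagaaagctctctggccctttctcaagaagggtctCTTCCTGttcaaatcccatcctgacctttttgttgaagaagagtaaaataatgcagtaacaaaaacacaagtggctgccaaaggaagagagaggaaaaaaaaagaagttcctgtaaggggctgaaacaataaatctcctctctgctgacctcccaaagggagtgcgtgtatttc

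The motifs searched on both strands were CAGGAAG and also CCGGAAG for factors of the ETS family, AGATAAG for factors of the GATA family, ACAATGG for factors of the SOX family, and the core promoter element TATAAA. Flt1 held TATAAA from 31 to 26 bases before its start, and Emcn held CAGGAAG on the opposite strand from 174 to 168 bases before its start. The 4 other windows held no match, and no hit overlapped another. Among all 32851 promoters of the same length, 12.4% held TATAAA, 10.8% CAGGAAG, 6.91% CCGGAAG, 2.74% AGATAAG and 3.02% ACAATGG. These matches describe the letters of the windows only.

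The 28 libraries held 23879271 to 34400066 counts each, and levels are given as CPM, counts scaled to a common library depth, after normalization by trimmed mean of M-values (TMM). The lowest count of any marker in any library was 4 (Cdh5), and no marker was at 0 anywhere. The labels carry a pair of preparation texts on every sample: flash-frozen whole gland for wild-type, Arid2 and Smarcb1 mice, and YFP+ cells sorted by flow cytometry from dissociated gland. A sort for YFP+ cells leaves out cells without that label. Both texts are on every sample, so the labels do not settle which groups were sorted. If it was the groups that the first text does not name, preparation differed between Braf or Arid1a knockout and wild type. It then also differed between Braf Arid2 or Braf Smarcb1 knockout and Braf. Preparation and genotype cannot be told apart where the groups compared differ in it. A list of 9 dissociation stress genes summed to 10615 to 13587 CPM in wild type, 4878 to 10433 in Arid1a knockout, 7031 to 11670 in Braf under vehicle and 16573 to 24946 in Braf under CKI. Under vehicle and CKI it summed to 12113 to 21403 and 8901 to 33844 CPM in Braf Arid1a knockout. The sums were 11497 to 14481 and 8033 to 12429 CPM in Braf Arid2 knockout, and 5159 to 7686 and 14491 to 17661 CPM in Braf Smarcb1 knockout. The part of preparation in these sums was not tested. Whole-gene Smarcb1 counts were 2.28 to 47.4 CPM in the 6 Smarcb1 knockout libraries and 15.1 to 249 CPM in the 22 others, with the overlap coming from Arid1a knockout libraries. Whole-gene counts of Arid1a (11.98 to 29.3 CPM in 9 knockout and 11.6 to 57.1 CPM in 19 other libraries) and Arid2 (15.5 to 37.5 and 7.03 to 53.9 CPM) overlapped, so they check those labels no further. No label states whether the libraries of a group come from different mice, so every p-value here refers to library-to-library spread, part of which may be technical.

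As a sum, the markers were high in both groups without the Braf allele and lower in every group with it. Eng and Plvap did not keep this order: their means were 54.68 and 30.44 CPM in Braf under CKI and 44.14 and 24.35 CPM in Arid1a knockout. Summed over the 10 markers, the level was 1914 to 2750 CPM in the 3 wild-type libraries and 1843 to 2582 CPM in the 3 Arid1a knockout libraries. It was 30.5, 611 and 267 CPM in Braf libraries 2, 4 and 5 under vehicle, and 594, 163 and 632 CPM in Braf libraries 1, 4 and 5 under CKI. Vehicle library 2 and CKI library 4 thus stood well below the other 2 libraries of their groups. In the remaining groups the sum ranged from 28.5 to 45.6 CPM in Braf Arid1a knockout under vehicle, from 40.7 to 105 under CKI, from 77.8 to 119.8 in Braf Arid2 knockout under vehicle and from 131 to 225 under CKI. In Braf Smarcb1 knockout it ranged from 105 to 142 under vehicle and from 80.3 to 97.9 under CKI. Such a sum is weighted to the markers with the highest CPM: Pecam1 alone was 112 of the 142 CPM in vehicle library 1. In vehicle library 2, Pecam1 was 43.9 and Plvap 32.0 of the 105 CPM. The mean over markers on the log2 scale, given next, overlapped between vehicle and CKI in this genotype.

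As a mean over markers of log2(CPM + 1), where 1 is the pseudocount, wild type stood at 7.27 ± 0.34 and Arid1a knockout at 6.83 ± 0.31 (SD, n = 3 each). Braf followed at 4.92 ± 1.001 under CKI and 3.91 ± 1.90 under vehicle (SD, n = 3 each). Braf Arid2 knockout stood at 3.69 ± 0.52 under CKI and 2.87 ± 0.43 under vehicle (SD, n = 2 each). Braf Smarcb1 knockout stood at 2.92 ± 0.043 under CKI and 2.75 ± 0.39 under vehicle, and Braf Arid1a knockout at 2.87 ± 0.69 and 1.90 ± 0.23 (SD, n = 3 each). The means of neighbouring groups below Arid1a knockout differed by less than the spread of Braf under vehicle.

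**Figure D1:**
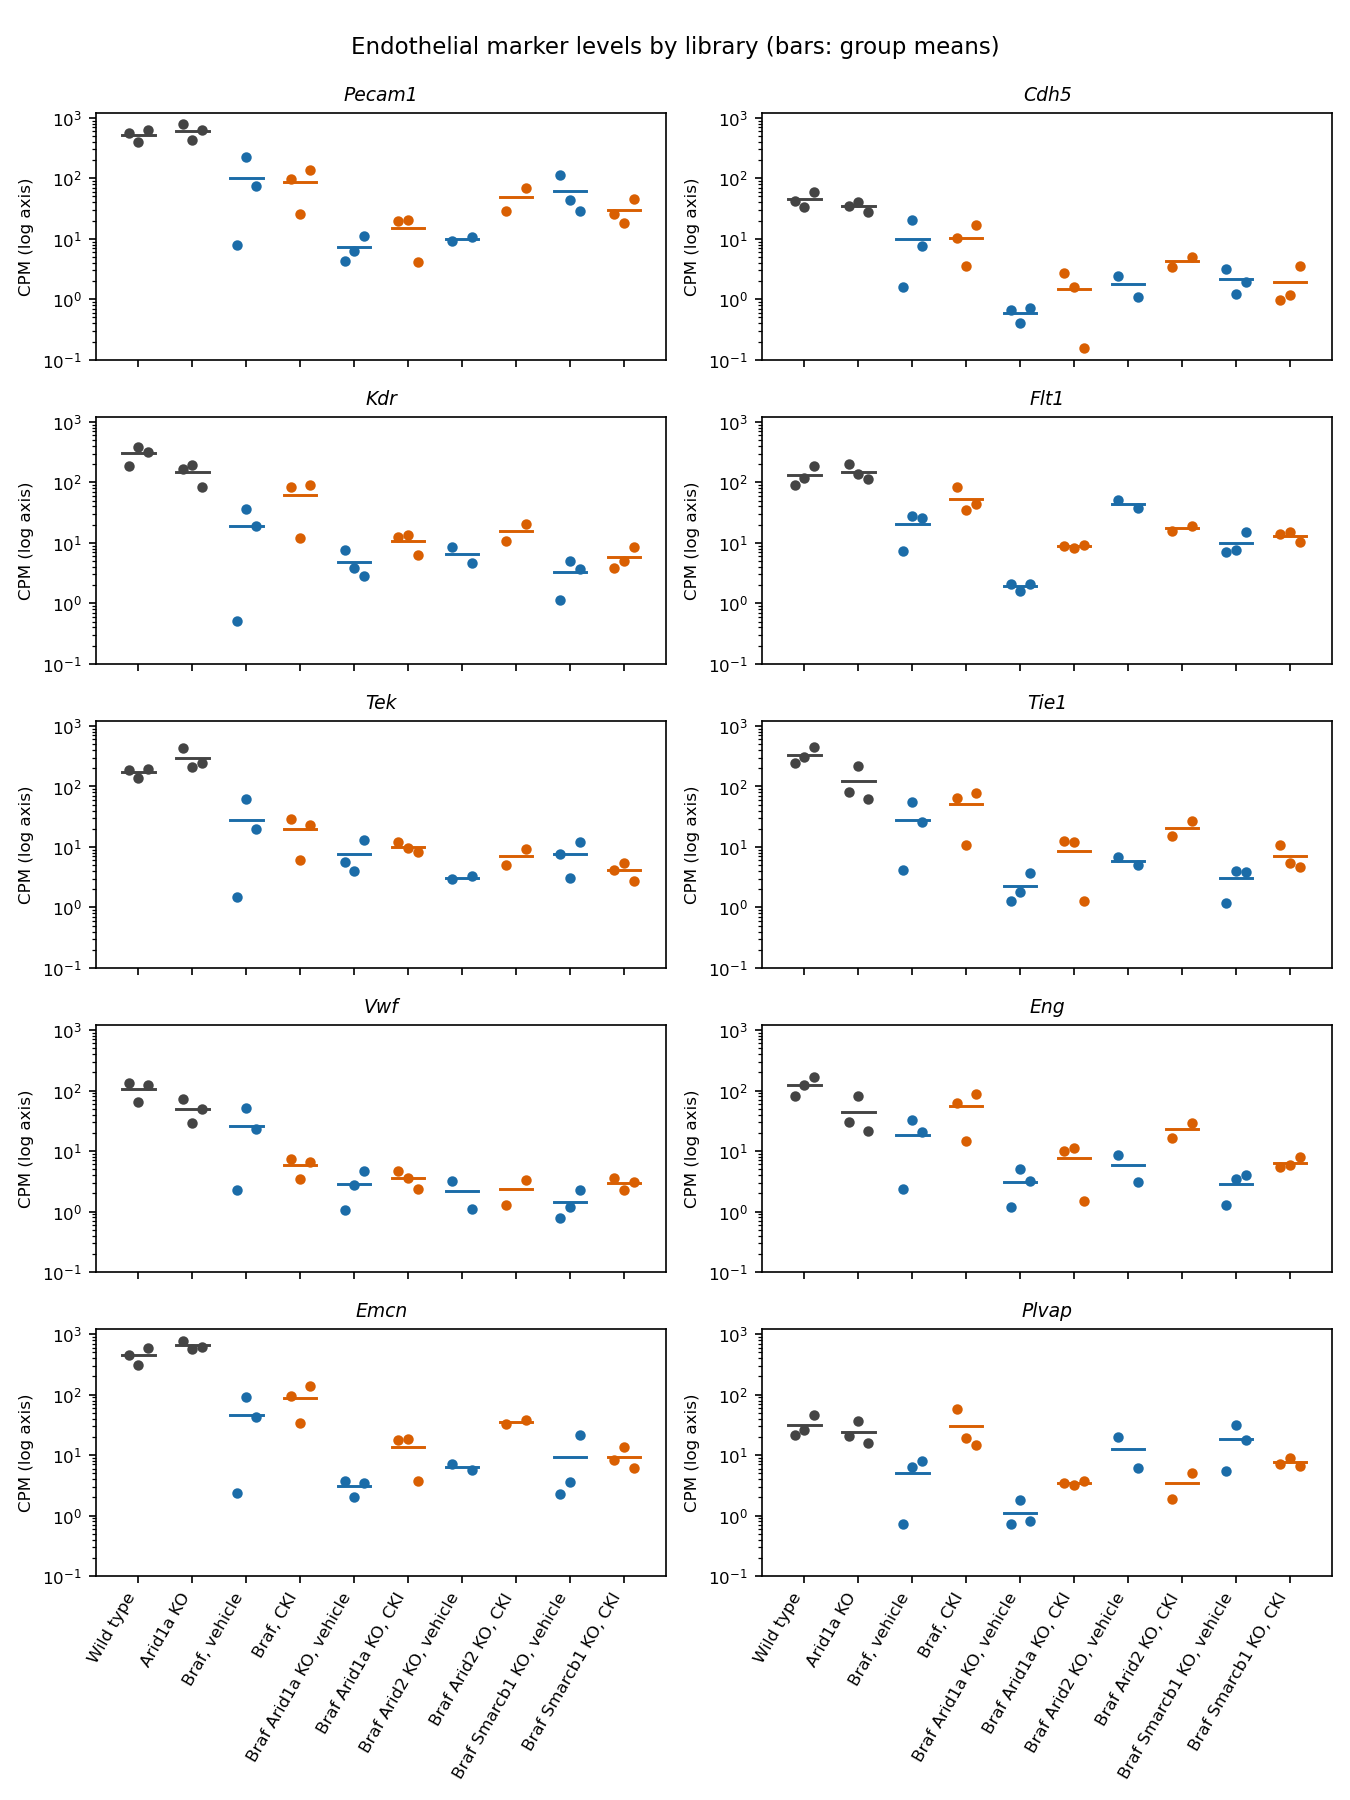
CPM on a log axis for each of the 10 endothelial markers (panels) in each library (points) of the 10 groups, with bars at the group means. The 6 libraries without the Braf allele lie above all 22 others in 5 panels (Pecam1, Cdh5, Flt1, Tek and Emcn) and overlap with 1 to 5 Braf libraries in the other 5. The share of all genes that separate in this way was not counted.

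For Pecam1, Cdh5, Flt1, Tek and Emcn, each of the 22 libraries with the Braf allele was below each of the 6 without it. How many of all genes separate in this way was not counted, so this number of markers has no background beside it. Emcn ranged from 312 to 775 CPM (median 579.6) without the allele and from 2.04 to 136 CPM (median 10.9) with it. Pecam1 ranged from 392 to 779.7 CPM without it and from 4.11 to 226 CPM with it. The other 5 markers overlapped through a few libraries: 5 Braf libraries exceeded the lowest library without the allele for Plvap, 4 for Eng, 2 each for Kdr and Tie1, and 1 for Vwf.

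The order of the groups differed between markers. Wild type had the highest mean for Cdh5, Kdr, Tie1, Vwf, Eng and Plvap, and Arid1a knockout for Pecam1, Flt1, Tek and Emcn. The lowest mean was in Braf Arid1a knockout under vehicle for Pecam1, Cdh5, Flt1, Tie1, Emcn and Plvap, in Braf Smarcb1 knockout under vehicle for Kdr, Vwf and Eng, and in Braf Arid2 knockout under vehicle for Tek. Most neighbours in these orders did not differ beyond their spread: in 16 of 90 neighbouring pairs of groups the libraries did not overlap. Flt1 had the most such pairs, 4 of 9. The same was not counted over all genes. Relative to the wild-type mean, the lowest group mean of any marker was 0.676%, for Tie1 in Braf Arid1a knockout under vehicle. Plvap kept the highest share of its wild-type mean of the 10 markers in 5 Braf groups: 96.9% in Braf under CKI, 58.4% in Braf Smarcb1 knockout under vehicle and 24.2% under CKI, 40.8% in Braf Arid2 knockout under vehicle and 11.1% in Braf Arid1a knockout under CKI. In the other 3 Braf groups the highest share was that of Vwf (23.9%, Braf under vehicle), Tek (4.34%, Braf Arid1a knockout under vehicle) or Eng (18.4%, Braf Arid2 knockout under CKI).

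All 10 markers fell in Braf thyroid under vehicle against wild type, by 2.06 (Vwf) to 4.002 (Kdr) on the log2 scale. Of all genes 10.1% were called lower (edgeR's quasi-likelihood test, Benjamini-Hochberg adjusted p under 0.05), and the median log2 fold change was -2.66 for the markers and -0.03 for all genes. Kdr, the main VEGF receptor, was at 189.7, 390.5 and 321 CPM in wild type and at 0.509, 36.7 and 18.9 CPM in Braf. All 3 Braf libraries were below all wild-type libraries, and the log2 fold change was -4.002 (SE 0.91, adjusted p = 0.00338). Flt1 was at 90.8, 117 and 185 CPM in wild type and at 7.23, 28.1 and 25.6 CPM in Braf, again without overlap (log2 fold change -2.69, SE 0.44, adjusted p = 0.000161). Tie1 was at 245, 313 and 443 CPM against 4.13, 54.9 and 26.0 CPM (a log2 fold change of -3.56, SE 0.87, adjusted p = 0.00574).

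Kdr, Flt1 and Tie1 held their calls in every alternative analysis. The other 7 lost theirs in at least 1. The number of markers called was 6 without Braf vehicle library 2, 5 without Braf vehicle library 5 and 5 without wild-type library 3. Fitting these 6 libraries alone gave 5, with 16.8% of all genes called. A replicate block gave 3, with 14.99% of all genes called. The block was estimated by replicate number over all 28 libraries, and Braf under vehicle and wild type shared only number 2.

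The junction proteins showed the same direction. Pecam1 was at 552, 392 and 619.8 CPM in wild type and at 7.79, 226 and 73.8 CPM in Braf (log2 fold change -2.35, SE 0.81, adjusted p = 0.0428). Cdh5 was at 42.4, 33.1 and 59.9 CPM against 1.58, 20.2 and 7.55 CPM (a log2 fold change of -2.20, SE 0.77, adjusted p = 0.0450). In both genes Braf library 4 was the highest of its group and library 2 the lowest, more than 10 times below it. The same held for Tek, which was at 186, 139 and 198 CPM in wild type and at 1.48, 62.3 and 19.9 CPM in Braf (adjusted p = 0.0188). Vwf, the stored clotting protein, was at 132, 65.9 and 125 CPM against 2.29, 51.8 and 23.0 CPM (adjusted p = 0.0431).

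Eng, the endoglin co-receptor, was at 80.7, 125 and 170.04 CPM in wild type and at 2.34, 32.8 and 20.6 CPM in Braf (adjusted p = 0.0212). Emcn was at 455, 312 and 581 CPM against 2.39, 91.8 and 43.4 CPM (adjusted p = 0.0109). Plvap was at 21.6, 25.8 and 46.9 CPM against 0.713, 6.44 and 8.06 CPM (adjusted p = 0.0134). None of these 3 overlapped between the groups. Over all genes 20.7% were lower without overlap.

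Of 30 other endothelial genes, 14 fell and none rose, with a median of -2.12. Mmrn2 fell from 330.0 ± 92.1 to 38.5 ± 43.4 CPM and Robo4, a guidance receptor of endothelium, from 136 ± 29.4 to 16.6 ± 19.9 CPM (SD, n = 3 each). In the list of 10 ligands and co-receptors of the VEGF and angiopoietin systems, Figf (VEGF-D) and Angpt1, the stabilizing ligand of Tek, rose, and Vegfc and Vegfb fell. Of 8 genes around endoglin 2 fell, among them its partner receptor Acvrl1, from 199.7 ± 69.4 to 24.8 ± 16.8 CPM, and of 6 Notch genes 3 fell, Dll4 and Notch4 among them. Of 10 pericyte and smooth muscle genes, which mark the cells that wrap vessels, none passed the test in either direction (median -0.25), and their summed level was 879 to 1509 CPM in wild type and 154, 1298 and 672 CPM in Braf libraries 2, 4 and 5. Of 8 fibroblast genes 7 rose (median 2.90), with sums of 899.6, 21908 and 5244 CPM in those libraries against 747 to 1457 in wild type. Of 7 leukocyte genes Cd52 and Cd53 rose, and of 7 follicular cell genes 5 fell. C cells and parathyroid cells are other cell types found in or beside the gland: of 4 C-cell genes 3 fell and 1 rose, and all 3 parathyroid genes fell. The C-cell genes summed to 12417 to 32996 CPM in wild type and 29.1 to 103 CPM in Braf. The part of these cell types, and of the preparation, in the marker result was not tested.

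Under CKI the same comparison with wild type gave 5 falls of 10 (Pecam1, Flt1, Tek, Tie1 and Vwf), where 7.05% of all genes were lower. It shares its wild-type libraries with the vehicle comparison. The marker median was -2.31, all 10 log2 fold changes were negative, and 8 markers lay below wild type without overlap, as 22.5% of all genes did. Vwf showed the largest fall, from 132, 65.9 and 125 CPM to 7.46, 3.41 and 6.68 CPM (a log2 fold change of -4.20, SE 0.78, adjusted p = 0.00127). Plvap stood apart from the rest, at 57.6, 19.2 and 14.5 CPM against 21.6, 25.8 and 46.9 CPM, with overlapping groups (log2 fold change -0.05, SE 0.68, adjusted p = 0.981). Eng overlapped as well, at 63.1, 14.7 and 86.2 CPM (a log2 fold change of -1.19, SE 0.78, adjusted p = 0.315). Of 5 platelet genes, a cell type that also holds Vwf, 2 fell (Pf4 and Gp9) with a median of -2.77, and their sum was 14.1 to 22.5 CPM against 23.6 to 54.3 in wild type. Of 10 pericyte and smooth muscle genes 2 fell (Acta2 and Tagln), of 8 fibroblast genes 2 rose (Col1a1 and Col1a2), and 3 of 4 C-cell genes and 3 of 3 parathyroid genes fell. Of the 30 other endothelial genes 8 fell, with a median of -1.67. The part of the other cell types was not tested. The call of Vwf alone held in all alternatives, and without Braf CKI library 4 only 1 marker was called.

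In Arid1a knockout thyroid without Braf, edgeR called none of the 10 markers against wild type and 18.6% of all genes. DESeq2 called none of the markers and 24.55% of all genes. No marker had an unadjusted p under 0.05 (32.5% of all genes did). Tek was at 425, 207 and 241 CPM against 186, 139 and 198 CPM in wild type (log2 fold change 0.74, SE 0.73, adjusted p = 0.524). Eng was at 30.2, 80.4 and 21.8 CPM against 80.7, 125 and 170.04 CPM (a log2 fold change of -1.50, SE 0.79, adjusted p = 0.192), and Tie1 at 82.0, 219.6 and 63.1 CPM against 245, 313 and 443 CPM (a log2 fold change of -1.46, SE 0.80, adjusted p = 0.214). Tek lay above wild type without overlap, as 17.1% of all genes did, and Eng and Tie1 below it, as 21.4% did, but all 3 missed the threshold. The median log2 fold change of the markers was -0.38. Among 30 other endothelial genes Cldn5, a tight junction protein, fell from 6.07 ± 2.23 to 0.562 ± 0.447 CPM (SD, n = 3 each, adjusted p = 0.0382), and the other 29 were not called. All 7 leukocyte genes rose (median 3.07), as did 5 of 8 fibroblast genes, so that Arid1a knockout held 2191 to 3833 summed leukocyte CPM against 346 to 576 in wild type. Pecam1 and Eng are found on such cells, and that share was not tested.

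The largest median difference of the markers in any comparison came with the Braf allele, and with the dosing that went with it, in Arid1a knockout. The labels do not settle whether Braf Arid1a knockout and Arid1a knockout also differed in preparation, and its part was not tested. All 10 markers fell in Braf Arid1a knockout under vehicle against Arid1a knockout, with log2 fold changes of -3.83 (Eng) to -7.72 (Emcn). None overlapped between the groups. Of all genes 19.2% were called lower and 26.2% were lower without overlap. All 10 calls held in every alternative, a replicate block included, and the median log2 fold change was -5.50. Emcn was at 775, 578 and 612 CPM in Arid1a knockout and at 3.74, 2.04 and 3.49 CPM with Braf (log2 fold change -7.72, SE 1.09, adjusted p = 1.72e-05). Pecam1 was at 779.7, 428 and 617 CPM against 4.31, 6.31 and 10.9 CPM (a log2 fold change of -6.40, SE 0.97, adjusted p = 3.78e-05). Flt1 was at 198, 136 and 112 CPM against 2.13, 1.63 and 2.06 CPM (a log2 fold change of -6.25, SE 0.52, adjusted p = 5.55e-08). The libraries of each group were close to each other beside these distances.

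Of the 30 other endothelial genes 26 fell, among them Ptprb, the endothelial phosphatase that acts on Tek, from 156 ± 47.1 to 0.790 ± 0.667 CPM, and Sele (E-selectin), from 159.7 ± 109 to 0.964 ± 0.689 CPM (SD, n = 3 each). In the VEGF and angiopoietin list 5 of 10 fell, among them Angpt2, the vessel-destabilizing ligand of Tek, from 39.5 ± 5.96 to 0.949 ± 0.389 CPM (adjusted p = 0.000163). Of 8 genes around endoglin 3 fell and 1 rose: its partner receptor Acvrl1 fell from 83.3 ± 41.2 to 6.03 ± 2.79 CPM and the target Id1 rose from 31.9 ± 35.2 to 122 ± 57.3 CPM. Of 6 Notch genes 3 fell, including the endothelial ligand Dll4, and Hey1 rose. Pericyte and smooth muscle genes fell in 8 of 10, led by Myh11 from 207 ± 40.8 to 0.194 ± 0.160 CPM. Fibroblast genes fell in 8 of 8, leukocyte genes in 5 of 7 and erythroid genes in 5 of 5, so several cell types moved with the markers, and their part was not tested. The 9 dissociation stress genes summed to 12113 to 21403 CPM with Braf, above Arid1a knockout, and 5 of them rose.

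**Figure D2:**
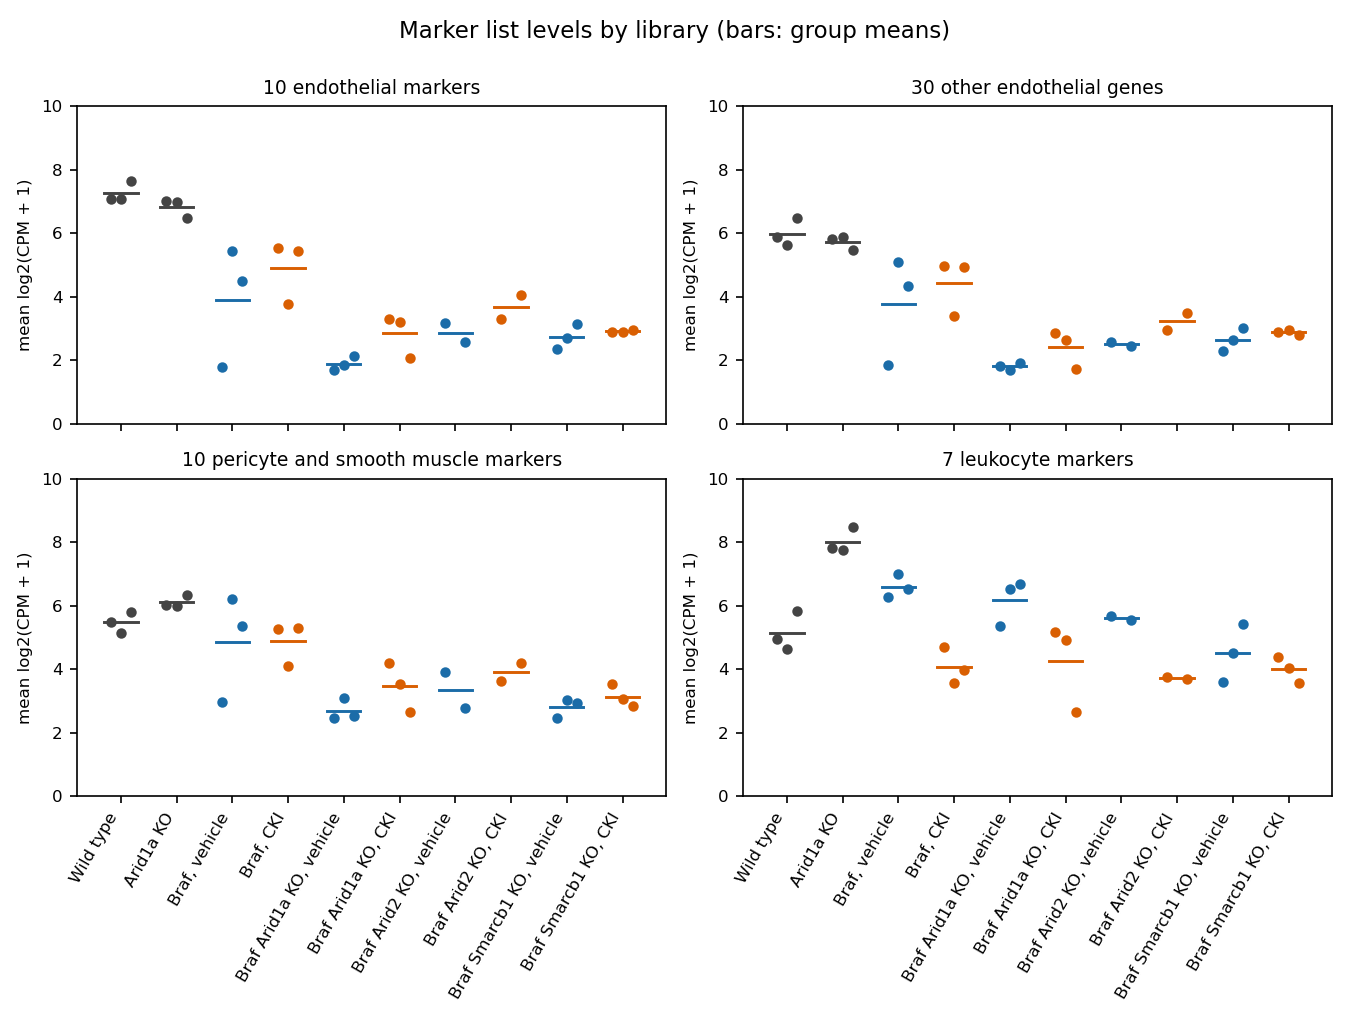
Mean log2(CPM + 1) of 4 marker lists (panels) in each library (points), with bars at the group means. The 10 endothelial markers and 30 other endothelial genes share one profile, Braf vehicle library 2 stands low in both and in the pericyte list, and leukocyte genes are highest in Arid1a knockout.

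CKI was compared with vehicle within each Braf genotype. In Braf thyroid Flt1 and Plvap rose and no marker fell, so that 2 of 10 rose where 7.96% of all genes did. Flt1 was at 7.23, 28.1 and 25.6 CPM under vehicle and at 84.7, 34.3 and 43.2 CPM under CKI, without overlap (log2 fold change 1.41, SE 0.42, adjusted p = 0.0307). Plvap was at 0.713, 6.44 and 8.06 CPM against 57.6, 19.2 and 14.5 CPM, also without overlap (log2 fold change 2.58, SE 0.73, adjusted p = 0.0242). Of all genes 18.1% were higher under CKI without overlap. Both calls rested on single libraries: without Braf CKI library 1 no marker was called (Flt1 0.93, adjusted p = 0.201, and Plvap 1.73, adjusted p = 0.159), without vehicle library 4 Flt1 alone was called, and without vehicle library 2 neither was (adjusted p = 0.112 and 0.0804) while Vwf was, in the lower direction. A fit of these 6 libraries alone called none, and 8.83% of all genes.

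The other markers under CKI in Braf thyroid did not pass the test. Vwf was the nearest, with a log2 fold change in the opposite direction: 2.29, 51.8 and 23.0 CPM under vehicle and 7.46, 3.41 and 6.68 CPM under CKI (log2 fold change -2.13, SE 0.72, adjusted p = 0.0517). DESeq2, the unfiltered fit and the other size factors put Vwf under the threshold (adjusted p = 0.0123, 0.0438 and 0.0458). Kdr was at 0.509, 36.7 and 18.9 CPM against 85.2, 12.01 and 89.4 CPM, with overlap (log2 fold change 1.73, SE 0.83, adjusted p = 0.171). Pecam1 and Cdh5 had log2 fold changes of -0.23 and 0.07, and Tek -0.52, all of which changed sign without 1 or another library.

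Beside the receptors, the ligand Vegfa rose in Braf thyroid under CKI from 40.3 ± 8.07 to 156 ± 63.0 CPM (SD, n = 3 each, adjusted p = 0.0130), and Vegfb from 1.52 ± 0.646 to 4.18 ± 0.724 CPM (adjusted p = 0.0250). In the VEGF and angiopoietin list 3 of 10 rose. Smad6 and Smad9, which act downstream of BMP receptors, rose as 2 of the 8 genes around endoglin, and Hey1 as 1 of 6 Notch genes. Of the 30 other endothelial genes Sox18, an endothelial transcription factor, rose from 1.80 ± 1.68 to 11.3 ± 3.69 CPM (adjusted p = 0.0253). None of 10 pericyte and smooth muscle genes was called. Leukocyte genes fell in 7 of 7, platelet genes Pf4 and Ppbp fell while Itga2b rose, and 6 of 7 follicular cell genes and 4 of 9 dissociation stress genes rose. Vwf is stored in platelets too, and the part of these cells was not tested.

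In Braf Arid1a knockout Flt1 rose under CKI and was the only marker called, where 2.51% of all genes rose. It was at 2.13, 1.63 and 2.06 CPM under vehicle and at 8.86, 8.29 and 9.08 CPM under CKI, so the groups lay far apart with little spread (log2 fold change 2.17, SE 0.44, adjusted p = 0.00768). This call held in every alternative. All 10 log2 fold changes were positive, with a median of 1.29. Emcn was at 3.74, 2.04 and 3.49 CPM against 17.9, 18.7 and 3.80 CPM (a log2 fold change of 2.12, SE 0.86, adjusted p = 0.160), and Plvap at 0.7296, 1.79 and 0.819 CPM against 3.45, 3.22 and 3.80 CPM (a log2 fold change of 1.66, SE 0.73, adjusted p = 0.197). Neither overlapped, and 13.3% of all genes were higher without overlap. CKI library 5 was the lowest of its group for Pecam1 (4.11 CPM against 20.02 and 20.4), Cdh5, Kdr, Tek, Tie1, Vwf and Eng as well. Clec14a and Egfl7 were the 2 of 30 other endothelial genes that rose. Among ligands Pgf, the placental growth factor that binds Flt1, rose from 58.7 ± 0.480 to 325 ± 40.8 CPM (SD, n = 3 each, adjusted p = 0.00101) and Vegfa from 42.1 ± 10.3 to 135 ± 92.2 CPM (adjusted p = 0.0430).

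In Braf Arid2 knockout, with 2 libraries a group, edgeR called no marker, where 3.37% of all genes were called. At an unadjusted p under 0.05 there were 4 markers and 20.85% of all genes, and DESeq2 called none of the markers and 9.497% of all genes. Flt1 was at 51.2 and 37.2 CPM under vehicle and at 15.7 and 19.0 CPM under CKI (log2 fold change -1.35, SE 0.51, adjusted p = 0.138). Plvap was at 19.6 and 6.05 CPM against 1.85 and 5.08 CPM (a log2 fold change of -1.88, SE 0.87, adjusted p = 0.220). These 2 had negative log2 fold changes and the other 8 positive ones, such as Emcn at 7.18 and 5.59 CPM against 32.4 and 38.0 CPM (2.46, SE 1.05, adjusted p = 0.185) and Pecam1 at 9.26 and 10.9 CPM against 29.2 and 68.2 CPM (2.28, SE 0.99, adjusted p = 0.193). All but Vwf were without overlap, as 24.4% of all genes were in the higher and 29.2% in the lower direction. A fit of these 4 libraries alone called 4 markers and 10.8% of all genes. Pgf rose from 66.4 ± 4.15 to 470.5 ± 87.4 CPM, and the VEGF co-receptor Nrp1 fell from 588 ± 209.7 to 205 ± 38.9 CPM (SD, n = 2 each, adjusted p = 0.00224 and 0.0230).

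In Braf Smarcb1 knockout no marker was called by edgeR, which called 3.85% of all genes, or by DESeq2, which called 8.52%. None had an unadjusted p under 0.05 (17.7% of all genes did). The median log2 fold change was 0.19, and Eng, Tie1 and Vwf lay above vehicle without overlap, as 11.5% of all genes did. Flt1 was at 7.15, 7.48 and 15.4 CPM under vehicle and at 14.0, 14.8 and 10.1 CPM under CKI, with overlap (log2 fold change 0.38, SE 0.41, adjusted p = 0.686). Plvap was at 5.55, 32.0 and 17.6 CPM against 7.18, 9.04 and 6.62 CPM (a log2 fold change of -1.27, SE 0.69, adjusted p = 0.353). Pgf rose from 9.37 ± 4.16 to 38.3 ± 24.7 CPM (adjusted p = 0.00419) and Smad6 from 0.713 ± 0.520 to 3.76 ± 1.94 CPM (SD, n = 3 each, adjusted p = 0.0254).

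**Figure D3:**
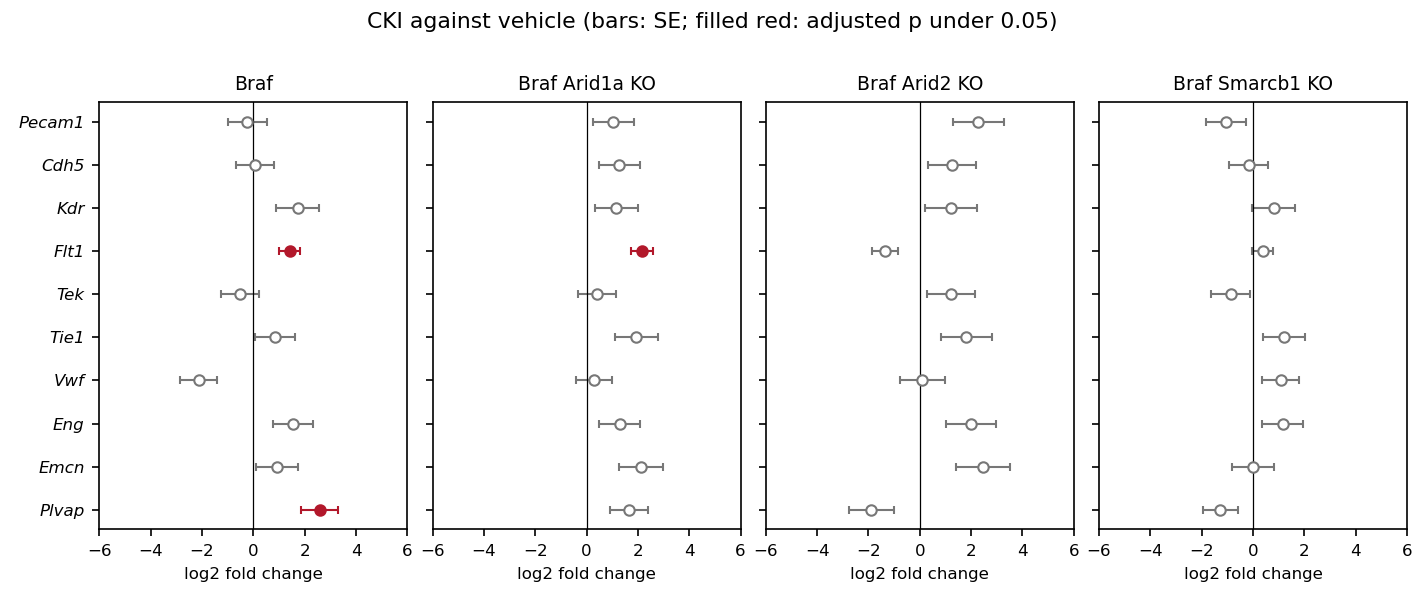
Log2 fold change under CKI against vehicle for the 10 markers in the 4 Braf genotypes, with bars for the standard error; filled red points passed the adjusted threshold of 0.05. Flt1 and Plvap lie to the right in Braf, Flt1 in Braf Arid1a knockout, and both lie left of 0 in Braf Arid2 knockout without passing the test.

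The drug responses were compared directly by the difference of their log2 fold changes. Flt1 and Plvap differed between Braf Arid2 knockout and Braf, by -2.76 (SE 0.66, adjusted p = 0.0172) and -4.46 (SE 1.14, adjusted p = 0.0213), where 7.19% of all genes had a lower response. In both genes the libraries were higher under CKI in Braf and lower under CKI in Braf Arid2 knockout. Over all genes 18.1% and 29.2% lay without overlap in these directions. Both calls were lost without either Braf Arid2 knockout CKI library or without vehicle library 2 of that genotype, and 1 was lost without Braf CKI library 1. The response of Braf Arid1a knockout was not called different from that of Braf for any marker in edgeR (1 marker at an unadjusted p under 0.05). No gene at all was called by edgeR, although 2018 (10.6%) had an unadjusted p under 0.05. DESeq2 called none of the markers and 0.90% of all genes. For Braf Smarcb1 knockout edgeR called none, where 0.305% of all genes were called. At an unadjusted p under 0.05 there were 2 markers (Vwf, 3.21, and Plvap, -3.85) and 11.5% of all genes, and DESeq2 called 1 marker and 1.41% of all genes.

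The knockouts were also compared with Braf alone, under vehicle and then under CKI, and these comparisons share the Braf libraries within each treatment. Under vehicle 6 markers fell in Braf Arid1a knockout (Pecam1, Cdh5, Flt1, Tie1, Vwf and Emcn) where 5.31% of all genes did. Flt1 fell most firmly, from 7.23, 28.1 and 25.6 CPM in Braf to 2.13, 1.63 and 2.06 CPM, without overlap (log2 fold change -3.39, SE 0.46, adjusted p = 0.000126). Cdh5 was at 1.58, 20.2 and 7.55 CPM against 0.666, 0.407 and 0.728 CPM, also without overlap (log2 fold change -4.01, SE 0.86, adjusted p = 0.00528). Tie1 was the third marker without overlap, and 11.9% of all genes were lower in this way. For 7 of the 10 markers the groups overlapped, with Braf library 2 close to the knockout libraries: in that library Pecam1 stood at 7.79 CPM against 4.31, 6.31 and 10.9 CPM in the knockout. The count was 10 without Braf library 2 and 2 without Braf library 4. Cdh5 and Flt1 held their calls in every alternative.

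With Braf Arid1a knockout under vehicle 21 of 30 other endothelial genes fell too, among them Sele and Aplnr, the apelin receptor of growing vessels. Angpt2 and Flt4, the receptor of lymphatic growth factors, were among the 3 of 10 VEGF and angiopoietin genes that fell. Pericyte and smooth muscle genes fell in 7 of 10 and fibroblast genes in 7 of 8, whereas none of 7 leukocyte genes was called. Myh11 was at 0.194 ± 0.160 CPM against 28.5 ± 32.4 CPM in Braf (SD, n = 3 each). The wide spread of Braf here again set library 2 against libraries 4 and 5. The part of pericytes and fibroblasts was not tested.

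In Braf Arid2 knockout under vehicle only Vwf fell, at 3.24 and 1.12 CPM against 2.29, 51.8 and 23.0 CPM, with overlap (log2 fold change -3.55, SE 0.91, adjusted p = 0.0360), and 1.28% of all genes were lower. Flt1 lay in the other direction, at 51.2 and 37.2 CPM against 7.23, 28.1 and 25.6 CPM, without overlap, as 19.1% of all genes were, and without passing the test (log2 fold change 1.12, SE 0.45, adjusted p = 0.151). Plvap was at 19.6 and 6.05 CPM against 0.713, 6.44 and 8.06 CPM (a log2 fold change of 1.33, SE 0.76, adjusted p = 0.308). The other 7 had log2 fold changes of -1.50 (Kdr) to -3.35 (Pecam1). The number called was 4 without Braf library 2, and 0 without Braf library 4 or without either Arid2 library, with DESeq2 calling 5, and 11.15% of all genes. Of 8 fibroblast genes 4 fell (median -3.94), and of 10 pericyte and smooth muscle genes 1 fell while all 10 log2 fold changes were negative (median -2.15). Their part was not tested. Of 30 other endothelial genes Ldb2 alone fell, from 18.7 ± 17.1 CPM (n = 3) to 2.64 ± 0.0243 CPM (SD, n = 2).

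In Braf Smarcb1 knockout under vehicle 6 markers fell (Cdh5, Kdr, Tie1, Vwf, Eng and Emcn) where 14.2% of all genes did. Vwf was at 0.771, 1.21 and 2.27 CPM against 2.29, 51.8 and 23.0 CPM (a log2 fold change of -4.18, SE 0.79, adjusted p = 0.000594), and Tie1 at 1.19, 4.02 and 3.89 CPM against 4.13, 54.9 and 26.0 CPM (a log2 fold change of -3.23, SE 0.86, adjusted p = 0.00802). Both lay below Braf without overlap, though by a narrow margin to Braf library 2, and 17.3% of all genes were lower without overlap. Pecam1 did not pass, at 112, 43.9 and 29.1 CPM against 7.79, 226 and 73.8 CPM (a log2 fold change of -0.74, SE 0.77, adjusted p = 0.507). Plvap had a positive log2 fold change, at 5.55, 32.0 and 17.6 CPM against 0.713, 6.44 and 8.06 CPM (1.85, SE 0.71, adjusted p = 0.0537). Without Braf library 4 only 1 marker was called. Vwf held its call in every alternative. DESeq2 called 7 markers lower and 1, Plvap, higher, and 33.4% of all genes in either direction.

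The other endothelial genes were split in the same genotype: 20 of 30 fell, such as Selp and Erg, and 2 rose. These 2 were Cldn5, from 2.71 ± 2.47 to 37.2 ± 4.71 CPM (adjusted p = 0.0142), and Rhoj, from 62.7 ± 33.4 to 163 ± 4.91 CPM (SD, n = 3 each, adjusted p = 0.0274). Vegfc rose, while Pgf and Figf (VEGF-D) were among the 4 of 10 in that list that fell, Pgf from 89.5 ± 7.96 to 9.37 ± 4.16 CPM (adjusted p = 9.91e-06). Pericyte and smooth muscle genes fell in 8 of 10, fibroblast genes in 5 of 8 and leukocyte genes in 3 of 7. Their part was not tested.

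Under CKI, 2 markers fell in Braf Arid1a knockout against Braf, Flt1 and Plvap, where 1.28% of all genes did. Flt1 was at 84.7, 34.3 and 43.2 CPM in Braf and at 8.86, 8.29 and 9.08 CPM in the knockout (log2 fold change -2.63, SE 0.44, adjusted p = 0.00218). Plvap was at 57.6, 19.2 and 14.5 CPM against 3.45, 3.22 and 3.80 CPM (a log2 fold change of -3.12, SE 0.74, adjusted p = 0.0265). Neither overlapped, and with them 6 of 10 markers lay below Braf without overlap, against 10.2% of all genes. Flt1 held its call in every alternative, and DESeq2 called 8 markers and 5.92% of all genes. Of 10 pericyte and smooth muscle genes 3 fell (median -1.65), with sums of 89.5 to 293 CPM against 232 to 656 in Braf, and their part was not tested. Among other endothelial genes Sele and Sox7 were 2 of the 7 that fell, and Angpt2 fell from 20.8 ± 14.3 to 0.652 ± 0.382 CPM (SD, n = 3 each, adjusted p = 0.00565).

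In Braf Arid2 knockout under CKI edgeR called no marker against Braf, where 1.27% of all genes were called. At an unadjusted p under 0.05 there were 2 markers and 22.2% of all genes, so the markers' count is near the background, and DESeq2 called 2 markers and 10.2% of all genes. Plvap was at 1.85 and 5.08 CPM against 57.6, 19.2 and 14.5 CPM (a log2 fold change of -3.13, SE 0.88, adjusted p = 0.0731), and Flt1 at 15.7 and 19.0 CPM against 84.7, 34.3 and 43.2 CPM (a log2 fold change of -1.64, SE 0.49, adjusted p = 0.0819). With Vwf they were the 3 markers below Braf without overlap, as 25.4% of all genes were. All 10 log2 fold changes and all 30 of the other endothelial genes were negative, with medians of -1.32 and -1.53, and none of these was called.

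In Braf Smarcb1 knockout under CKI 7 markers fell against Braf (Cdh5, Kdr, Flt1, Tek, Tie1, Eng and Emcn) where 9.19% of all genes did. Kdr was at 85.2, 12.01 and 89.4 CPM in Braf and at 3.89, 4.96 and 8.43 CPM in the knockout, without overlap (log2 fold change -3.43, SE 0.89, adjusted p = 0.0101). Emcn was at 93.2, 33.9 and 136 CPM against 8.28, 13.4 and 6.03 CPM (a log2 fold change of -3.25, SE 0.88, adjusted p = 0.0136). Flt1, at 14.0, 14.8 and 10.1 CPM in the knockout, fell by 2.06 on the log2 scale (SE 0.43, adjusted p = 0.00204) and held its call in every alternative. Of the 10 markers 6 lay below Braf without overlap, as 19.2% of all genes did. Plvap narrowly missed the threshold (log2 fold change -2.00, SE 0.71, adjusted p = 0.0543). Without 1 library the count ranged from 2 to 7, lowest without Braf Smarcb1 knockout CKI library 1. Of 30 other endothelial genes 17 fell, among them Gpihbp1, which anchors lipoprotein lipase in capillaries, and Robo4. Of 10 VEGF and angiopoietin genes 5 fell and of 10 pericyte and smooth muscle genes 5 fell, whereas 1 of 7 leukocyte genes did.

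**Figure D4:**
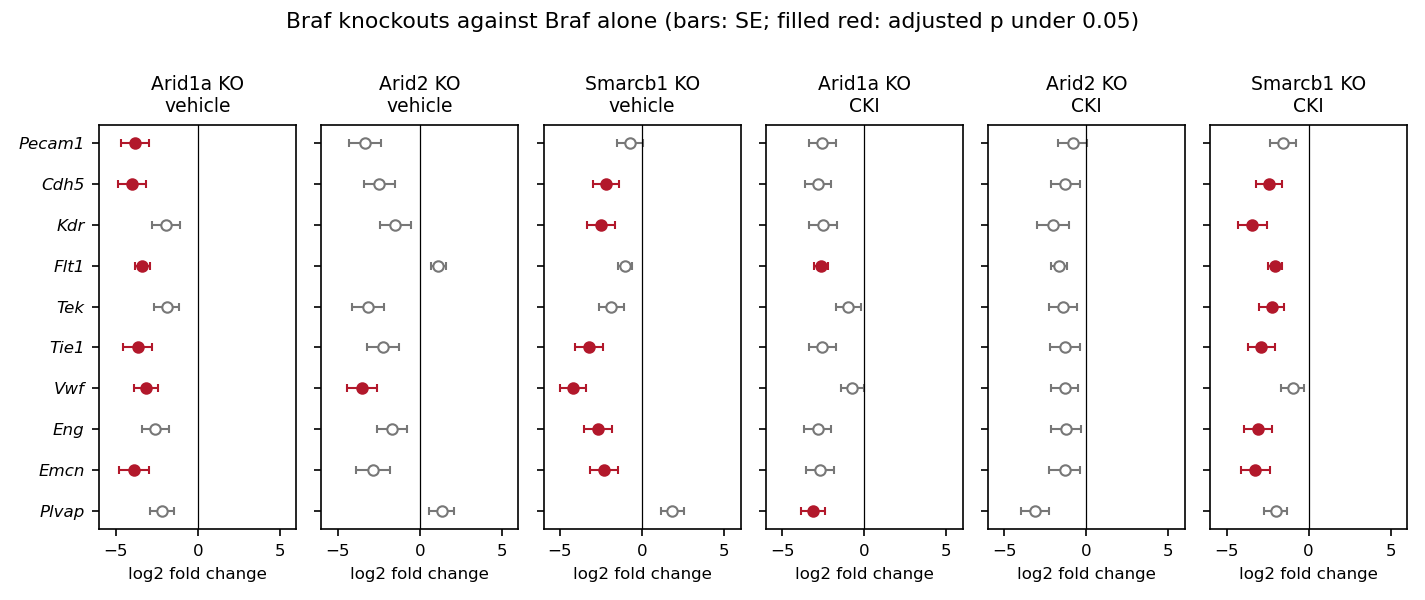
Log2 fold change of the 10 markers in each added knockout against Braf alone, under vehicle and under CKI, with bars for the standard error; filled points passed the adjusted threshold of 0.05. Most points lie left of 0, with Plvap right of 0 in Braf Smarcb1 and Braf Arid2 knockout under vehicle.

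The markers varied together from library to library. Over the 28 libraries Pearson's r of log2(CPM + 1) between pairs of markers ranged from 0.528 to 0.964 with a median of 0.862 over 45 pairs. After the mean of each group was taken out the range was 0.246 to 0.923 and the median 0.706. These are descriptions, since the values of a library share its scaling and its mixture of cells. Cdh5 followed the mean of the other 9 markers most closely (r = 0.970 over libraries), with Emcn at 0.968 and Tie1 at 0.960, and Plvap least (0.687, and 0.562 within groups). Pecam1, which leukocytes share, had 0.909, and Vwf, which platelets share, 0.892.

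Of 13127 other genes with a group mean of at least 5 CPM, the 10 whose profile over the 28 libraries was most like the mean of the markers were Mmrn2 (r = 0.988), Ptprb (0.985), Adcy4 (0.981), Icam2 (0.981), Cyyr1 (0.979), Robo4 (0.978), Ldb2 (0.973), Fam70b (0.971), Erg (0.971) and Cd93 (0.970). After the group means were taken out their r was 0.887 to 0.955. Mmrn2, a matrix protein of the endothelial surface, had means of 330.0 CPM in wild type, 149 in Arid1a knockout, 38.5 in Braf under vehicle and 36.1 under CKI. Mmrn2, Ptprb, Icam2, Robo4, Ldb2, Erg and Cd93 are also in the list of 30 other endothelial genes.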

How the data were processed

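RNA sequencing of mouse thyroid was deposited by the authors as whole-number counts per gene, 1 column per library. Per the submitters' processing notes, reads were handled with STAR 2.4, HTSeq 0.6.1 and DESeq2 on build mm9; what each step did, and whether counting used strand, is not given in the sources used here, so reads of overlapping antisense genes cannot be told apart. Of 30 labelled samples 28 had a matching column; 2 Braf Arid2 knockout samples, 1 under vehicle and 1 under CKI, were not analysed here. Counts were fitted in R 4.3.3 with edgeR 4.0.16 (TMM, filterByExpr, quasi-likelihood test) over all 28 libraries and 10 groups in one model. The Benjamini-Hochberg adjustment covered all 19016 genes tested, and genes with an adjusted p under 0.05 are called. Each standard error (SE) of a log2 fold change is its absolute value divided by the square root of the F statistic of the quasi-likelihood test. The method was tested on simulated data.

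The members and gene lists were chosen with earlier results of these data known. All 10 markers are named; from each other list, at most the 2 largest rises and 2 largest falls past the threshold per comparison, and the 10 genes most like the markers' mean. Alternatives were RLE size factors, no filter on low counts, DESeq2 1.42.0, only the compared groups, a replicate block and leaving out each library. All same-numbered libraries matched each other best, by their deviations from the group mean, only between Arid1a knockout and Braf Arid1a knockout under vehicle. The correlations of these 3 of 3 pairs were low, 0.134 to 0.190. Between Arid1a knockout and wild type they were 0.056 to 0.241, with 2 of 3 matching best. The labels do not say that the numbers mark shared animals or batches, so pairing was not established. No 2 libraries of a group were duplicates: a chi-square test of their counts gave 85.2 to 395 for each degree of freedom.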

Additional observations from a re-analysis of the deposited data

Results flagged for a closer look

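The response of Flt1 to CKI differed between Braf Arid2 knockout and Braf, by -2.76 on the log2 scale (SE 0.66, edgeR adjusted p = 0.0172), and that of Plvap by -4.46 (SE 1.14, edgeR adjusted p = 0.0213). Both were picked out because the effects of the same drug differ between 2 genotypes by a test of the difference itself. Of all genes 7.19% were called with a lower response. In Braf, Flt1 and Plvap were higher under CKI in 3 of 3 libraries than in any vehicle library, and in Braf Arid2 knockout they were lower in 2 of 2. Over all genes 18.1% were higher without overlap in Braf and 29.2% lower without overlap in Braf Arid2 knockout. The response within Braf Arid2 knockout did not pass the test on its own (adjusted p = 0.138 for Flt1 and 0.220 for Plvap, edgeR). Neither difference was called without either Braf Arid2 knockout CKI library, without vehicle library 2 of that genotype, or in a fit of the compared groups alone, in which 8.81% of all genes were called. The genotypes may also differ in preparation, which the labels do not settle, and its part was not tested.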

How the results depend on the processing

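The counts of markers called moved as follows, and the cause was not tested. With a replicate block the count went from 10 to 3 for Braf vehicle against wild type, from 5 to 2 for Braf CKI against wild type, from 2 to 1 for CKI in Braf, from 1 to 0 and from 6 to 2 for Braf Arid2 and Braf Smarcb1 knockout against Braf under vehicle, from 2 to 1 for Braf Arid1a knockout against Braf under CKI and from 2 to 1 for the response of Braf Arid2 knockout minus that of Braf. The block kept 10 of 10 calls for Braf Arid1a knockout under vehicle against Arid1a knockout. That was the only comparison in which all same-numbered libraries matched best, and pairing was not established there either. Over all genes the block moved the share called from 19.96% to 14.99%, 17.2% to 9.55%, 12.97% to 11.3%, 3.61% to 5.20%, 28.6% to 24.1%, 2.30% to 1.38% and 8.66% to 6.10% in these comparisons, in the same order. Under the block the median for CKI in Braf Smarcb1 knockout was 0.52.

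With only the compared groups in the fit, which leaves fewer samples to estimate the spread, the count was 5 for Braf vehicle and 8 for Braf CKI against wild type, 0 for CKI in Braf, 4 for CKI in Braf Arid2 knockout, 3, 0 and 1 for Braf Arid1a, Arid2 and Smarcb1 knockout against Braf under vehicle, 1 each for Braf Arid1a and Arid2 knockout against Braf under CKI, and 0 for the Arid2 response difference. The shares of all genes called were then 16.8%, 28.8%, 8.83%, 10.8%, 5.36%, 0.00633%, 14.8%, 0.889%, 7.65% and 8.81%. With DESeq2 it was 8 for Braf CKI against wild type, 5 for Braf Arid2 knockout against Braf under vehicle, 8 and 2 for Braf Arid1a and Arid2 knockout against Braf under CKI, and 1 for the Smarcb1 response difference, where it called 23.1%, 11.15%, 5.92%, 10.2% and 1.41% of all genes. With no filter on low counts it was 3 for Braf Arid2 knockout under vehicle and 4 for Braf Arid1a knockout under CKI, with 2.33% and 1.58% of all genes.

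Leaving out 1 library at a time, where a lone Braf Arid2 knockout library left in a group is assumed to vary like the other groups, gave counts of 5 to 10 for Braf vehicle against wild type, 1 to 4 for Braf CKI against wild type, 0 to 2 for CKI in Braf, 2 to 10, 0 to 4 and 1 to 8 for Braf Arid1a, Arid2 and Smarcb1 knockout against Braf under vehicle, 1 to 2 and 2 to 7 for Braf Arid1a and Smarcb1 knockout under CKI, and 0 to 2 for the Arid2 response difference. The shares of all genes ranged from 12.4% to 20.06%, 9.115% to 14.4%, 3.82% to 12.9%, 3.885% to 8.61%, 0.189% to 4.60%, 20.5% to 27.15%, 0.843% to 2.98%, 10.53% to 15.6% and 0 to 10.8% in the same order. Medians ranged from -0.63 to -0.0482 for Arid1a knockout against wild type, -5.95 to -5.28 for Braf Arid1a knockout against Arid1a knockout, 0.81 to 1.85 for CKI in Braf Arid2 knockout and -0.0774 to 0.86 for CKI in Braf Smarcb1 knockout.

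Of 52 called markers over the comparisons, 20 kept their call in every alternative. No called marker changed sign. Among those not called, the block turned Plvap in Braf CKI against wild type to 0.0314, Pecam1 under CKI in Braf to 0.0825, Vwf under CKI in Braf Arid2 knockout to -0.32 and Tek in the Smarcb1 response difference to 0.0193. Emcn under CKI in Braf Smarcb1 knockout was -0.0235 with RLE size factors, -0.0263 with DESeq2 and -0.0107 with only the compared groups. Leaving out 1 library, log2 fold changes that changed sign ranged from -0.90 to 0.36 for Plvap in Braf CKI against wild type and, for Arid1a knockout against wild type, from -0.0417 to 0.51 for Flt1 and -0.755 to 0.0393 for Plvap. For CKI in Braf they ranged from -0.73 to 1.08 for Pecam1, -0.49 to 1.13 for Cdh5 and -1.01 to 0.85 for Tek. For Vwf they ranged from -0.0815 to 0.88 under CKI in Braf Arid1a knockout and -0.75 to 1.06 in Braf Arid2 knockout, and in Braf Smarcb1 knockout from -0.97 to 0.27 for Cdh5 and -0.44 to 1.65 for Emcn. For Pecam1 in Braf Smarcb1 knockout against Braf under vehicle they ranged from -1.51 to 0.58. In the Arid1a response difference they ranged from -0.91 to 0.25 for Eng, -0.0175 to 1.78 for Pecam1 and -0.44 to 1.58 for Tek, in the Arid2 one from -0.24 to 1.36 for Eng and -1.45 to 4e-04 for Kdr, and in the Smarcb1 one from -1.70 to 0.16 for Tek, -0.51 to 0.82 for Tie1, -1.27 to 0.33 for Cdh5, -1.05 to 0.0929 for Eng and -1.89 to 0.72 for Emcn. Counts down to 4 per library (Cdh5) limit the precision of the low groups.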
